A study of Mus musculus with 4 samples.

Results

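Cells divide by building a spindle, checking that every chromosome is attached to it, and then separating the chromosomes and the cell body. Cyclin B with the kinase CDK1 starts mitosis, the spindle checkpoint holds it until all kinetochores are attached, and the anaphase-promoting complex ends it by marking cyclin B and securin for destruction. Most of these genes are transcribed in G2 and M phase, so their RNA in a growing fibroblast culture is made mainly by the cells then passing through those phases.

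A set of 47 named mitosis and spindle genes was followed in immortalized mouse embryonic fibroblasts with and without PTIP, the BRCT-domain protein encoded by Paxip1. Of the 47, 46 had a probe set naming them alone, and all 46 passed the filter on dim signals, out of 12509 genes tested. No probe set in the platform annotation carried the symbol of Ccnb1, cyclin B1, so it has no value here. The set was chosen by name, as cyclin B/CDK1, checkpoint, kinesin, kinetochore, condensin and cytokinesis genes, but with earlier results of these data known. Counts over it are therefore descriptions. Each gene is represented by its brightest probe set.

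The PTIP -/- cells were PTIP flox/flox fibroblasts infected with a retrovirus expressing Cre recombinase. The PTIP +/+ cells were such fibroblasts infected with the vector alone. Both groups thus started from floxed alleles and both were infected, but only the PTIP -/- cells received Cre. An effect of Cre and one of PTIP loss cannot be told apart here. All were puromycin-selected in medium with serum. Each genotype gave 2 RNAs, numbered 1 and 2, which makes 4 Affymetrix arrays in all. What the numbers mark, such as separate cultures or infections, is not stated in the labels. The p-values below thus rest on the spread between these RNAs alone, and whether that spread is technical or biological is not stated. Values are array intensities, called signals here, and the number of arrays limits their precision. Log2 differences are PTIP -/- minus PTIP +/+, and pairs of signals are given with replicate 1 before replicate 2.

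Paxip1 read 43.5 and 74.6 in PTIP -/-, against 1029.5 and 1040.1 in PTIP +/+, a log2 difference of -4.18 ± 0.36 (SE, limma, adjusted p = 0.999). All 8 fibroblast markers were above the filter level of 47.68 on every array, with summed signals of 170052.6 and 154842.7 in PTIP -/- against 175901.0 and 188353.3 in PTIP +/+. Of 4 epithelial, 3 endothelial, 3 blood and 3 muscle markers, 6 were above it on every array: Epcam (from 220.4 to 436.1), Krt8 (from 89.3 to 182.0), Kdr (from 107.0 to 172.0), Cd68, Adgre1 and Des. The defining epithelial Cdh1 and endothelial Pecam1 were below it on all 4. The summed epithelial signals were 705.1 and 459.9 in PTIP -/-, against 493.3 and 381.7 in PTIP +/+, and the other 3 sums ran from 108.3 to 268.5. Their part in the results below was not tested. The replicate numbers also differed from each other within a genotype. The surface marker Thy1 read 14822.9 and 1500.7 in PTIP -/-, against 16080.1 and 239.2 in PTIP +/+. For that reason the members are read within each replicate number as well as over all arrays. In bulk RNA, fewer cells in mitosis and less mitotic RNA per cell cannot be told apart.

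Many mitotic genes share a pair of promoter elements, the cell cycle genes homology region or CHR, which the DREAM and MuvB complexes bind, and CCAAT boxes, which NF-Y binds. Promoter windows of 300 bases, 250 before and 50 after the listed transcription start, were taken from RefSeq (build GRCm38.p6). The 4 stretches shown cover the 150 bases before the start. They belong to the 3 members farthest below 0 in number 2 among those with a CHR (Prc1, Top2a and Kif11) and to the farthest without one (Birc5). Prc1 has several listed starts, and the one whose stretch holds a whole CHR is shown. CHR letters (TTTGAA or TTCGAA, either strand) and CCAAT letters (CCAAT or ATTGG) are in capitals.
Prc1, chr7:80294326-80294475, plus strand: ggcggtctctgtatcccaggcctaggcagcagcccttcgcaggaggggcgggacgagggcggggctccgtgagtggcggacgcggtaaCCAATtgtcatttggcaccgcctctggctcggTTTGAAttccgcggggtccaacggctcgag
Top2a, chr11:99024190-99024339, minus strand: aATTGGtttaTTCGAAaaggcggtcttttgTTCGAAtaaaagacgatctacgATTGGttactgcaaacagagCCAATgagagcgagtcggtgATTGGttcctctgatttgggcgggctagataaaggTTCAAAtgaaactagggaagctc
Kif11, chr19:37376232-37376381, plus strand: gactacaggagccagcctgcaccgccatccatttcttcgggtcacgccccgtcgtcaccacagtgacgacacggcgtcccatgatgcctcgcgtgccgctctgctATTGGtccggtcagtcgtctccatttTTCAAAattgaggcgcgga
Birc5, chr11:117849087-117849236, plus strand: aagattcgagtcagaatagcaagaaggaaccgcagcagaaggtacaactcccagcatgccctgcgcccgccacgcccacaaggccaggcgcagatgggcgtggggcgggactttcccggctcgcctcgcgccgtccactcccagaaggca

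Mitosis genes were lower in PTIP -/- almost throughout, and the difference lay mainly between the arrays numbered 2. Genes of DNA replication, given below, had much the same medians within the numbers. Over all 4 arrays 43 of the 46 were lower, where 43.9% of all genes tested were lower, with a median log2 difference of -0.42 against 0.05 for all genes. Within number 1, 33 of 46 were lower (46.3% of all genes) with a median of -0.11, and 38 lay within 0.3 of 0 (60.2% of all genes). Within number 2, 44 of 46 were lower (45.6% of all genes) with a median of -0.68, and 5 lay within 0.3 of 0 (45.6% of all genes). Quantile normalization left 31 lower in number 1 (median -0.06). Centring the arrays on their medians gave 42 (median -0.31), but it also moved the median of all genes over the 4 arrays from 0.05 to -0.11. The number 1 count thus depends on the scaling. When all probe sets of a gene were averaged, those below the filter included, 26 were lower in number 1 (median -0.02). The shares of all genes within number 1 under these settings were not taken. Without PTIP -/- replicate 2 the median over the remaining arrays was -0.19, and without PTIP -/- replicate 1 it was -0.66.

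**Figure D1:**
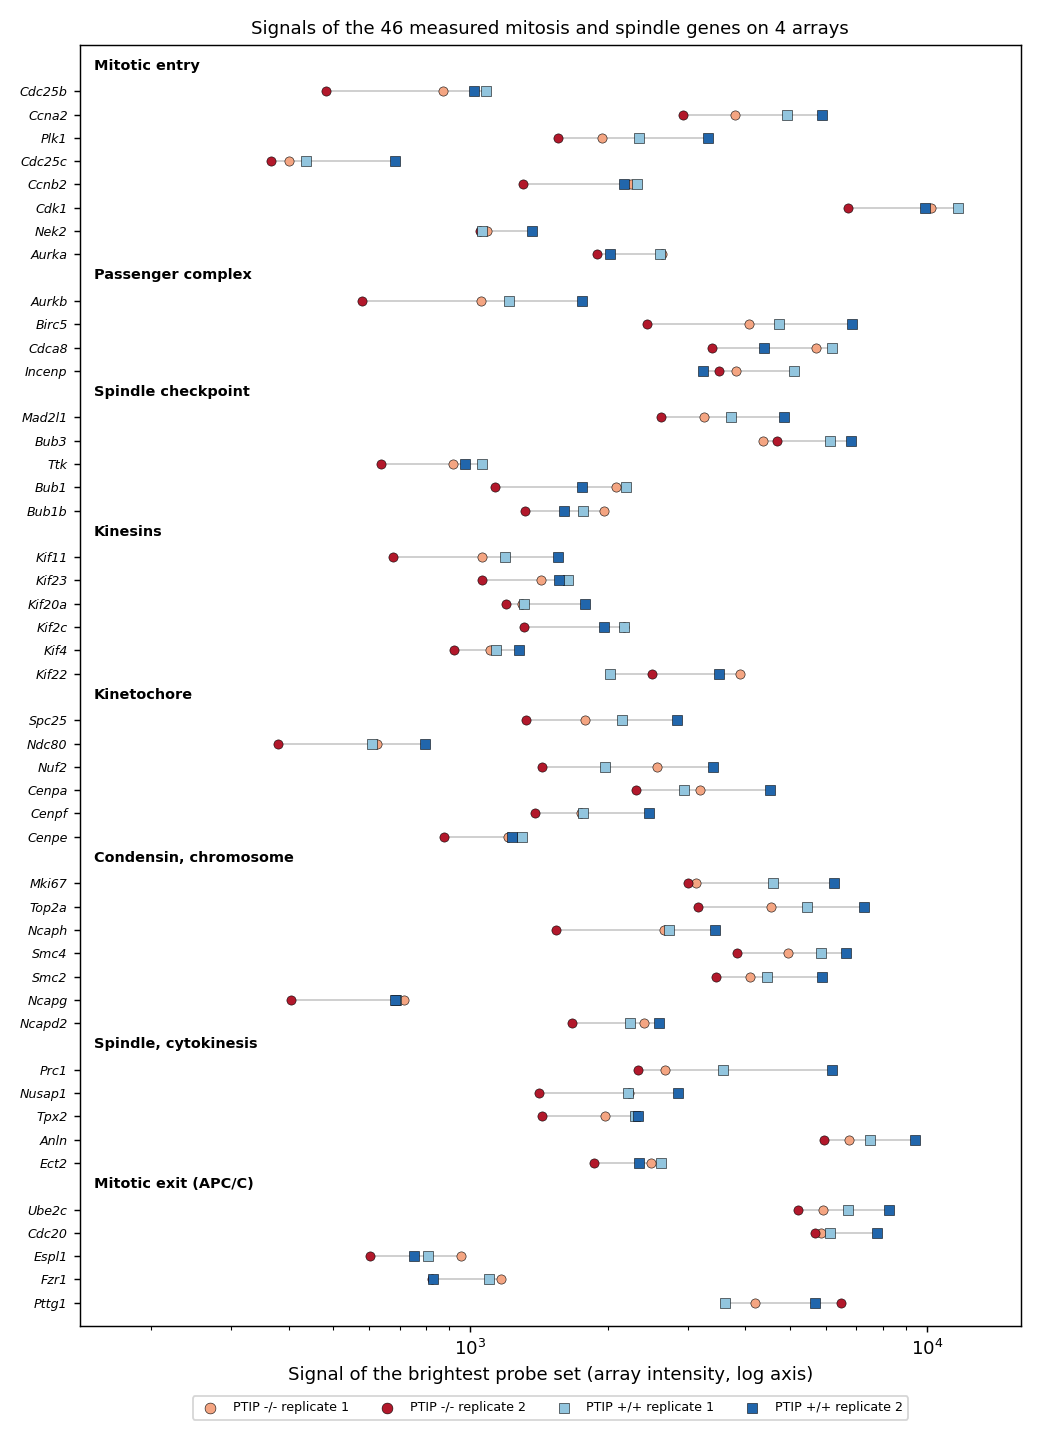
Signal of the brightest probe set (array intensity, log axis) of the 46 measured members, by function, with circles for PTIP -/- and squares for PTIP +/+ and the darker shade for replicate 2. PTIP -/- replicate 2 is the lowest of the 4 arrays for 42 members and PTIP +/+ replicate 2 the highest for 28.

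No member passed the test. With limma over 12509 genes, 0 of 46 had an adjusted p under 0.05 (0% of all genes lower and 0% higher), and the adjusted p was 0.999 for each. Paxip1 itself did not pass either, so this 0 is not particular to the members. At an unadjusted p under 0.05 there was 1 member, Mki67, and it was lower (0.943% of all genes were lower at that level). Standard errors of the log2 differences ran from 0.25 to 0.46. With 2 arrays against 2, the smallest p of an exact 2-sided permutation test is 0.333. The lower values below are therefore measurements on these 4 arrays and not calls.

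Between the replicate numbers the median member differed in opposite directions in the 2 genotypes, though not every member or group did. From replicate 1 to replicate 2 the median member differed by -0.46 log2 in PTIP -/- and by 0.31 in PTIP +/+. The median of all genes differed by -0.04 and -0.03. In the spindle checkpoint, alone of the groups, both medians were below 0, at -0.52 in PTIP -/- and -0.12 in PTIP +/+. In PTIP -/-, 44 of 46 members were lower on array 2 than on array 1 (53.2% of all genes), and in PTIP +/+, 30 of 46 were higher on array 2 (48.1% of all genes). PTIP -/- replicate 2 held the lowest of the 4 signals for 42 members (24% of all genes), the others being Bub3, Incenp, Pttg1 and Kif22. PTIP +/+ replicate 2 was the highest for 28 (24.9% of all genes). For 27 members PTIP -/- replicate 2 was the lowest while PTIP +/+ replicate 2 was the highest (6.48% of all genes). In 45 of 46 members the difference was further below 0 in number 2 than in number 1 (48.2% of all genes), Incenp being the exception. What the replicate numbers mark is not stated, and anything that differed between the RNAs numbered 2 besides genotype cannot be told apart from it.

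**Figure D2:**
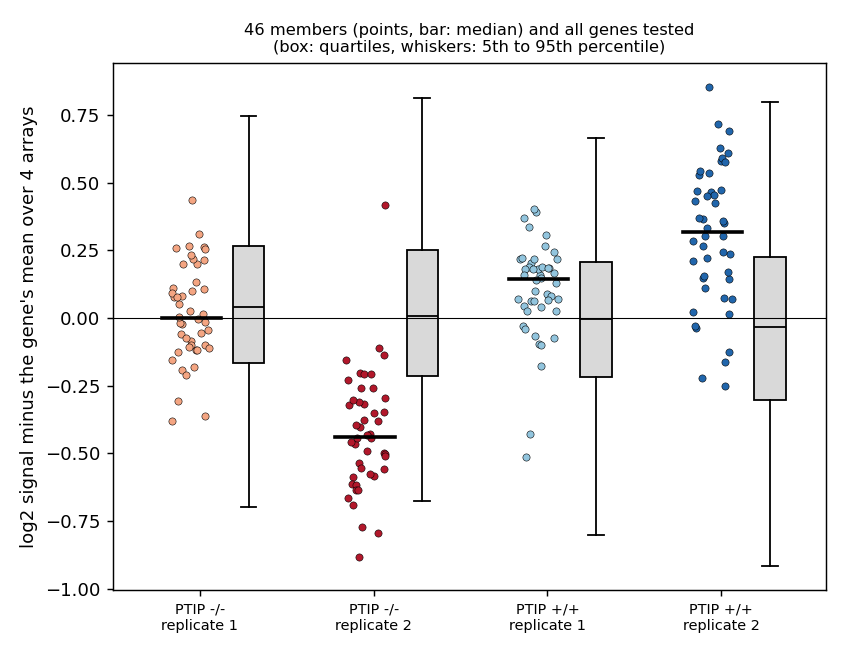
Log2 signal of each member minus its own mean over the 4 arrays (points, with the median as a bar) beside the same for all genes tested (boxes: quartiles, whiskers: 5th to 95th percentile). The members sit below their means on PTIP -/- replicate 2, apart from Pttg1, and mostly above them on PTIP +/+ replicate 2, while the boxes stay around 0.

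Among the genes of mitotic entry, all 8 measured members were lower over the 4 arrays (43.9% of all genes) and within number 2 (45.6%). Within number 1, 6 were lower (46.3% of all genes). The medians were -0.16 (number 1) and -0.82 (number 2). Cdc25b, a phosphatase that activates CDK1, read 871.1 and 483.6 in PTIP -/-, against 1082.9 and 1017.2 in PTIP +/+. Both PTIP -/- arrays were below both PTIP +/+ arrays, by 1.24-fold in number 1, by 2.10-fold in number 2 (log2 -0.69 ± 0.38, SE). Ccna2, cyclin A2, which acts in S phase and early mitosis, read 3804.7 and 2924.1 in PTIP -/-, against 4931.5 and 5878.7 in PTIP +/+ (log2 -0.69 ± 0.29, SE). Its second probe set, at 3713.3 and 2813.4 in PTIP -/-, against 4771.5 and 5163.5 in PTIP +/+, gave nearly the same differences, -0.36 and -0.88, as the first, -0.37 and -1.01.

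Plk1, the kinase needed for spindle assembly and mitotic exit, was 1.21-fold (number 1) and 2.13-fold (number 2) lower. Cdk1 itself read 10186.9 and 6709.5 in PTIP -/-, against 11668.6 and 9906.8 in PTIP +/+. Ccnb2, its cyclin B2 partner, read 2245.9 and 1301.5 in PTIP -/-, against 2319.3 and 2167.8 in PTIP +/+. For both, PTIP -/- replicate 1 lay inside the PTIP +/+ range and PTIP -/- replicate 2 below it. Cdc25c, another activating phosphatase, differed by -0.12 in number 1 and -0.90 in number 2. Its second probe set gave 0.30 and -0.64, with the opposite sign in number 1. The 2 members that differed least were Aurka and Nek2. Aurka, the centrosomal Aurora kinase, read 2625.1 and 1891.3 in PTIP -/-, against 2604.4 and 2018.0 in PTIP +/+, a log2 difference of -0.04 ± 0.32 (SE) that was 0.01 in number 1 and -0.09 in number 2. Nek2, a kinase that separates centrosomes, read 1088.4 and 1050.6 in PTIP -/-, against 1061.4 and 1365.3 in PTIP +/+, or 0.04 and -0.38. A second probe set of it gave 0.14 and 0.27, with the opposite sign in number 2.

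The chromosomal passenger complex corrects faulty attachments and later directs cytokinesis. It held the members with the widest differences in number 2 and also 1 that did not share them. Aurkb, its kinase, read 1052.5 and 578.2 in PTIP -/-, against 1217.6 and 1752.5 in PTIP +/+, which is 1.16-fold (number 1) and 3.03-fold (number 2) lower (log2 -0.90 ± 0.42, SE). Birc5, survivin, read 4074.3 and 2436.7 in PTIP -/-, against 4725.5 and 6828.9 in PTIP +/+, 1.16-fold and 2.80-fold lower (log2 -0.85 ± 0.40, SE). For both, PTIP -/- replicate 2 was the lowest array and PTIP +/+ replicate 2 the highest (6.48% of all genes). Both PTIP -/- arrays lay below both PTIP +/+ arrays (12.1% of all genes). The second probe set of Aurkb gave 0.00 and -1.33.

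Cdca8, borealin, differed by -0.11 and -0.37. Incenp, the scaffold of the complex, went the other way between the numbers, at 3811.3 and 3507.4 in PTIP -/-, against 5101.7 and 3235.5 in PTIP +/+, or -0.42 (number 1) and 0.12 (number 2). Other probe sets of Incenp gave -0.11 and -0.09, -0.05 and -0.44, and 0.10 and -0.45, so its pattern depends on the probe set. The brightest probe sets of Aurkb and Incenp, like those of Kif22, Cdc25c, Ncaph, Kif2c and Cdc20, have the suffix _x_at, which Affymetrix gives to sets with probes that match other sequences as well.

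In the spindle checkpoint, all 5 members were lower over the 4 arrays (43.9% of all genes), with medians of -0.20 (number 1) and -0.61 (number 2). Mad2l1, which makes the inhibitor of the anaphase-promoting complex together with BubR1, read 3242.2 and 2614.2 in PTIP -/-, against 3723.1 and 4856.7 in PTIP +/+ (log2 -0.55 ± 0.29, SE). Bub3, the adaptor that recruits Bub1 and BubR1 to kinetochores, differed by nearly the same amount in both numbers on its brightest probe set alone. It read 4371.5 and 4691.5 in PTIP -/-, against 6123.0 and 6803.5 in PTIP +/+, 1.40-fold (number 1) and 1.45-fold (number 2) lower (log2 -0.51 ± 0.25, SE), and a second, dimmer probe set gave -0.11 and -0.41. A pair of sets near the filter level gave 0.78 and -0.03, and 0.27 and -0.77, and the difference was -0.14 when all its probe sets were averaged. Bub1b, BubR1, read 1961.5 and 1319.2 in PTIP -/-, against 1762.2 and 1605.2 in PTIP +/+, with 0.15 in number 1 and -0.28 in number 2. Its second probe set, at 1430.8 and 886.3 in PTIP -/-, against 1666.7 and 1443.3 in PTIP +/+, gave -0.22 and -0.70. Bub1, a checkpoint kinase, differed by -0.07 (number 1) and -0.63 (number 2). Ttk, the kinase that starts the checkpoint signal, gave -0.21 and -0.61.

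The kinesins move and cross-link spindle microtubules. Within number 2 all 6 were lower (45.6% of all genes), by a median of -0.57, and within number 1 the median was -0.03. Kif11, the Eg5 motor that pushes spindle poles apart, was the farthest, at 1062.1 and 678.1 in PTIP -/-, against 1190.0 and 1558.4 in PTIP +/+ (log2 -0.68 ± 0.35, SE). Its 2 other probe sets gave -1.11 and -1.32 in number 2 and -0.10 and 0.04 in number 1. Kif23, of the centralspindlin complex, read 1425.6 and 1059.7 in PTIP -/-, against 1631.9 and 1559.4 in PTIP +/+. On this set both PTIP -/- arrays lay below both PTIP +/+ arrays (12.1% of all genes). A second, dimmer set, at 346.7 and 293.6 in PTIP -/-, against 363.1 and 336.8 in PTIP +/+, did overlap. Kif20a, which works in cytokinesis, Kif2c, a microtubule depolymerase, and Kif4, a chromosome-bound motor, differed by -0.57, -0.58 and -0.47 in number 2. In number 1 they differed by -0.012, -0.002 and -0.043. Dimmer probe sets of Kif2c gave 0.35 to 0.53 in number 1 and -0.86 to -0.35 in number 2.

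Kif22, a chromosome-arm motor, was 1 of 3 members higher over all arrays, and this rested on its probe set. Its brightest set read 3896.3 and 2497.7 in PTIP -/-, against 2018.6 and 3506.1 in PTIP +/+, or 0.95 in number 1 and -0.49 in number 2 (log2 0.23 ± 0.43, SE). The other probe sets, at 764.2 and 534.9 in PTIP -/-, against 888.0 and 1126.2 in PTIP +/+ and at 394.7 and 285.9 in PTIP -/-, against 435.5 and 658.0 in PTIP +/+, gave -0.22 and -0.14 in number 1 and -1.07 and -1.20 in number 2. On them Kif22 has the same order of arrays as Kif11.

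**Figure D3:**
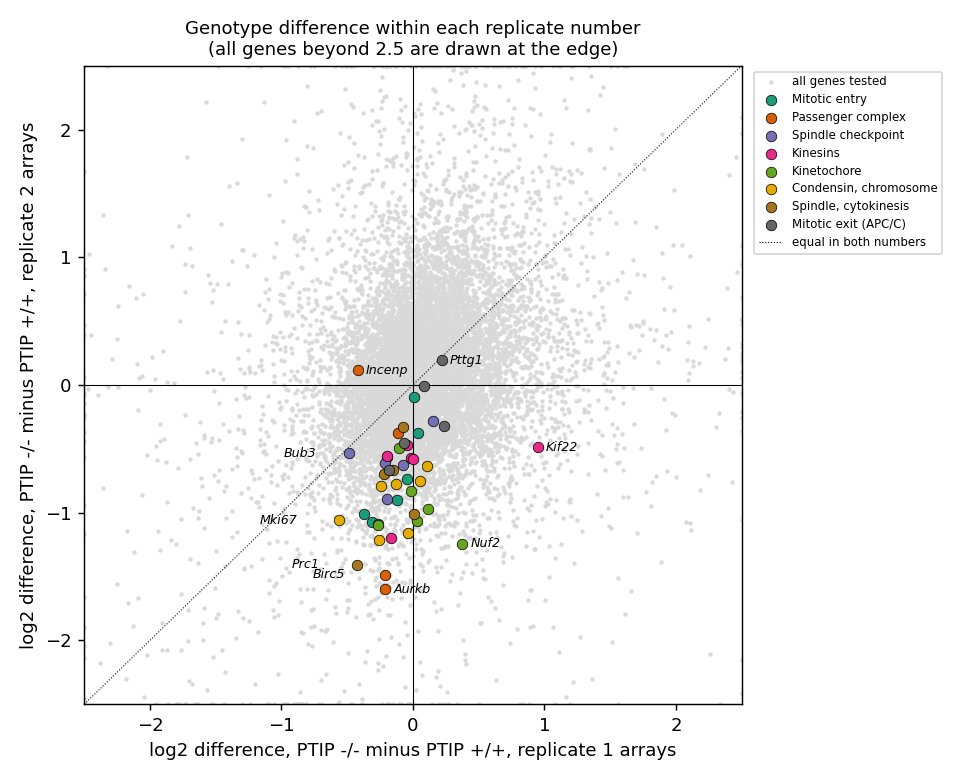
Log2 difference, PTIP -/- minus PTIP +/+, between the replicate 2 arrays (vertical) and between the replicate 1 arrays (horizontal), for the members by function and for all genes tested in grey. Most members lie below 0 in number 2 and nearer to 0 in number 1. Kif22 and Nuf2 lie farthest to the right, and Mki67, Bub3, Prc1 and Incenp farthest to the left. Incenp and Pttg1 are above 0 in number 2.

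The kinetochore members showed the widest gap between the numbers, with medians of 0.01 (number 1) and -1.02 (number 2). Spc25 and Nuf2 belong to the NDC80 complex, which binds microtubules, as does Ndc80 itself. Spc25 read 1784.4 and 1322.7 in PTIP -/-, against 2143.5 and 2831.7 in PTIP +/+ (log2 -0.68 ± 0.32, SE). Ndc80 read 623.5 and 379.4 in PTIP -/-, against 608.8 and 795.0 in PTIP +/+. Nuf2 read 2558.1 and 1433.9 in PTIP -/-, against 1970.3 and 3398.7 in PTIP +/+. In both, PTIP -/- was slightly or moderately higher in number 1 (1.02-fold and 1.30-fold) and lower in number 2 (2.10-fold and 2.37-fold). Cenpa, the histone H3 variant of centromeres, likewise gave 0.12 and -0.97, at 3174.7 and 2309.9 in PTIP -/-, against 2929.9 and 4537.0 in PTIP +/+. Cenpe, a kinetochore motor, had the smallest difference of the group, at 1208.5 and 876.7 in PTIP -/-, against 1299.8 and 1233.3 in PTIP +/+. Cenpf, a large kinetochore protein, gave -0.01 and -0.83.

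Condensin shapes mitotic chromosomes, topoisomerase II untangles them and Ki-67 coats them. All 7 members of this group were at least 1.5-fold lower within number 2 (11.2% of all genes), and none was at least 1.5-fold lower within number 1 (6.1% of all genes). Mki67 read 3113.8 and 3001.6 in PTIP -/-, against 4605.7 and 6254.9 in PTIP +/+, 1.48-fold (number 1) and 2.08-fold (number 2) lower. With a log2 difference of -0.81 ± 0.29 (SE, limma, unadjusted p = 0.0443, adjusted p = 0.999) it was the 1 member past the unadjusted level. Its 2 PTIP -/- signals were close together and its PTIP +/+ signals were not. Top2a, whose promoter stretch holds 3 CHR and 4 CCAAT matches, read 4548.6 and 3144.7 in PTIP -/-, against 5442.4 and 7286.6 in PTIP +/+ (log2 -0.74 ± 0.34, SE).

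The condensin ATPases Smc2 and Smc4 were 1.71-fold and 1.73-fold lower in number 2. Dimmer probe sets of Smc2 gave 0.49 to 1.16 in number 1 and -1.12 to -0.60 in number 2, so its number 1 value depends on the probe set. Those of Smc4 gave 0.21 and -0.07 in number 1, and -0.59 and -0.96 in number 2. Of the condensin I subunits, Ncaph differed by -0.04 (number 1) and was 2.23-fold lower in number 2. Ncapg read 714.6 and 405.5 in PTIP -/-, against 689.0 and 683.6 in PTIP +/+. Ncapd2 read 2402.5 and 1666.1 in PTIP -/-, against 2233.8 and 2584.3 in PTIP +/+. Both of these were a little higher in PTIP -/- in number 1, and lower in number 2 by 1.69-fold and 1.55-fold.

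In the group of spindle assembly and cytokinesis, Prc1, which bundles the microtubules of the central spindle, had the largest difference of any member over all arrays. It read 2663.3 and 2332.5 in PTIP -/-, against 3573.4 and 6190.9 in PTIP +/+, 1.34-fold (number 1) and 2.65-fold (number 2) lower (log2 -0.92 ± 0.37, SE), and its second probe set gave -0.53 and -1.22. Nusap1, a microtubule-binding protein, read 2222.5 and 1411.8 in PTIP -/-, against 2210.7 and 2846.6 in PTIP +/+, with 0.01 in number 1 and -1.01 in number 2. Tpx2, which activates Aurora A, and Anln, anillin of the contractile ring, gave -0.22 and -0.15 in number 1 and -0.70 and -0.66 in number 2. Ect2, the exchange factor that activates RhoA at the cleavage site, had the smallest difference, at 2483.9 and 1860.9 in PTIP -/-, against 2612.4 and 2342.5 in PTIP +/+ (log2 -0.20 ± 0.29, SE).

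Of the 8 groups, the genes of mitotic exit had the median nearest to 0, at -0.04 over all arrays (0.04 when all probe sets of a gene were averaged), with 0.08 in number 1 and -0.32 in number 2. Over all arrays 3 were lower (43.9% of all genes) and 2 higher. Ube2c, the ubiquitin-conjugating enzyme of the anaphase-promoting complex, read 5924.1 and 5214.0 in PTIP -/-, against 6715.4 and 8254.1 in PTIP +/+ (log2 -0.42 ± 0.27, SE). Cdc20, its mitotic activator, read 5849.7 and 5667.6 in PTIP -/-, against 6131.4 and 7772.7 in PTIP +/+ (log2 -0.26 ± 0.27, SE). On these probe sets both were lower on each PTIP -/- array than on either PTIP +/+ array (12.1% of all genes). For Cdc20 this rested on the probe set: a second, at 3727.3 and 3267.7 in PTIP -/-, against 3558.8 and 4124.9 in PTIP +/+, overlapped between the genotypes. Another, dim set gave -0.13 and 1.76, and averaging all its probe sets gave 0.14.

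Fzr1, the other activator of the same complex, which takes over after mitosis and in G1, read 1164.5 and 826.1 in PTIP -/-, against 1099.6 and 829.3 in PTIP +/+, and its log2 difference of 0.04 ± 0.33 (SE) turned to -0.12 with centred arrays. Espl1, separase, which cuts cohesin, read 951.9 and 603.0 in PTIP -/-, against 806.2 and 753.1 in PTIP +/+, or 0.24 and -0.32. Pttg1, securin, its inhibitor, was the 1 member higher in both numbers, at 4204.6 and 6490.5 in PTIP -/-, against 3613.3 and 5668.9 in PTIP +/+, by 1.16-fold in number 1 and by 1.14-fold in number 2 (log2 0.21 ± 0.39, SE). Unlike the other members, Pttg1 was highest on PTIP -/- replicate 2, and a second probe set, at 874.9 and 1300.2 in PTIP -/-, against 700.1 and 1154.1 in PTIP +/+, gave 0.32 and 0.17.

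Every functional group held members at least 1.5-fold lower in number 2, but unevenly. They ran from 7 of 7 condensin and chromosome structure genes and 5 of 6 kinetochore genes to 1 of 6 kinesins and 1 of 5 exit genes (11.2% of all genes). No checkpoint or exit gene was at least 2-fold lower there (4.86% of all genes). Within number 2, 28 of 46 were at least 1.5-fold lower (11.2% of all genes) and 14 at least 2-fold lower (4.86% of all genes). Within number 1, 0 were at least 1.5-fold lower (6.1% of all genes) and 0 at least 2-fold lower (2.53% of all genes), so 0 reached 1.5-fold lower in both (2.21% of all genes). Lower in both numbers by any amount were 32 (25.8% of all genes). At least 1.5-fold higher were 1 member in number 1, Kif22 (10.9% of all genes), and 0 in number 2 (16.5% of all genes). Both PTIP -/- arrays lay below both PTIP +/+ arrays for 26 members (12.1% of all genes) and above them for 0 (16.6% of all genes). Across the 46 members the 2 differences correlated at a Pearson r of 0.29 and a Spearman rho of 0.39. Members share arrays and are not independent, so these coefficients are a description.

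Second probe sets of the same genes were mostly lower within number 2 as well, and not within number 1. Above the filter, 29 members had 49 further probe sets, of which 42 were lower in number 2, with a median of -0.60. In number 1, 20 of the 49 were lower, with a median of 0.10. On their brightest probe sets, 45.6% of all genes were lower in number 2 and 46.3% in number 1. The share over all second probe sets was not taken. Of the 32 with a mean signal of at least 300, a level set after the values were seen, 30 were lower in number 2 (median -0.67) and 17 in number 1 (median -0.03).

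Lists of other cell division genes were read in the same way. Of 21 further kinetochore and centromere genes tested, 19 were lower, with medians of -0.18 in number 1 and -0.69 in number 2. Cenpm, a centromere protein, read 369.8 and 216.9 in PTIP -/-, against 449.4 and 645.3 in PTIP +/+ (log2 -0.93 ± 0.40, SE). Of 16 further motor, spindle and cytokinesis genes, 14 were lower, with medians of 0.04 and -0.71, and Hmmr, a spindle protein, was the farthest (log2 -0.69 ± 0.38, SE). Wee1 and Pkmyt1, the kinases that hold CDK1 inactive, were 2.95-fold and 2.58-fold lower in number 2 and 1.19-fold and 1.22-fold lower in number 1. The activators Cdc25b and Cdc25c were lower on the same arrays, as read on their brightest probe sets. All 3 genes particular to condensin II were lower, Ncapg2 by the most (log2 -0.70 ± 0.39, SE).

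Medians lay nearer 0 for the anaphase-promoting complex and cohesin, whose subunits also act outside mitosis. Among 12 core subunits of the anaphase-promoting complex 11 were lower, but the medians were -0.02 in number 1 and -0.20 in number 2, and Anapc11 was the farthest (log2 -0.27 ± 0.28, SE). Among 9 cohesin genes 5 were lower and 4 higher, with medians of 0.07 and -0.11. Stag1, a cohesin subunit, read 2607.7 and 2180.2 in PTIP -/-, against 1482.9 and 1351.9 in PTIP +/+, and was 1.76-fold higher in number 1 and 1.61-fold higher in number 2 (log2 0.75 ± 0.26, SE, limma, adjusted p = 0.999). The difference between these lists and the members was not tested.

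Transcription factors that act on cell cycle promoters included genes on both sides. Of 17, 11 were lower, with medians of 0.02 in number 1 and -0.15 in number 2. Foxm1, which activates G2 and M phase genes, read 1361.2 and 870.0 in PTIP -/-, against 1245.4 and 1476.8 in PTIP +/+, the same order of arrays as Nuf2 except for a narrower span. Mybl2, B-Myb, its partner on the CHR, gave -0.48 and -0.41. E2f8, an E2F repressor that is itself made in S phase, was the farthest of the list and much alike in both numbers, at 472.5 and 380.9 in PTIP -/-, against 949.9 and 972.8 in PTIP +/+, 2.01-fold (number 1) and 2.55-fold (number 2) lower (log2 -1.18 ± 0.26, SE, limma, adjusted p = 0.999). Of 37 genes of DNA replication 36 were lower (43.9% of all genes), with medians of -0.22 (number 1) and -0.73 (number 2). The members had -0.11 and -0.68, so the pattern was not particular to mitosis genes. Tk1, thymidine kinase, was the farthest (log2 -1.01 ± 0.45, SE).

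**Figure D4:**
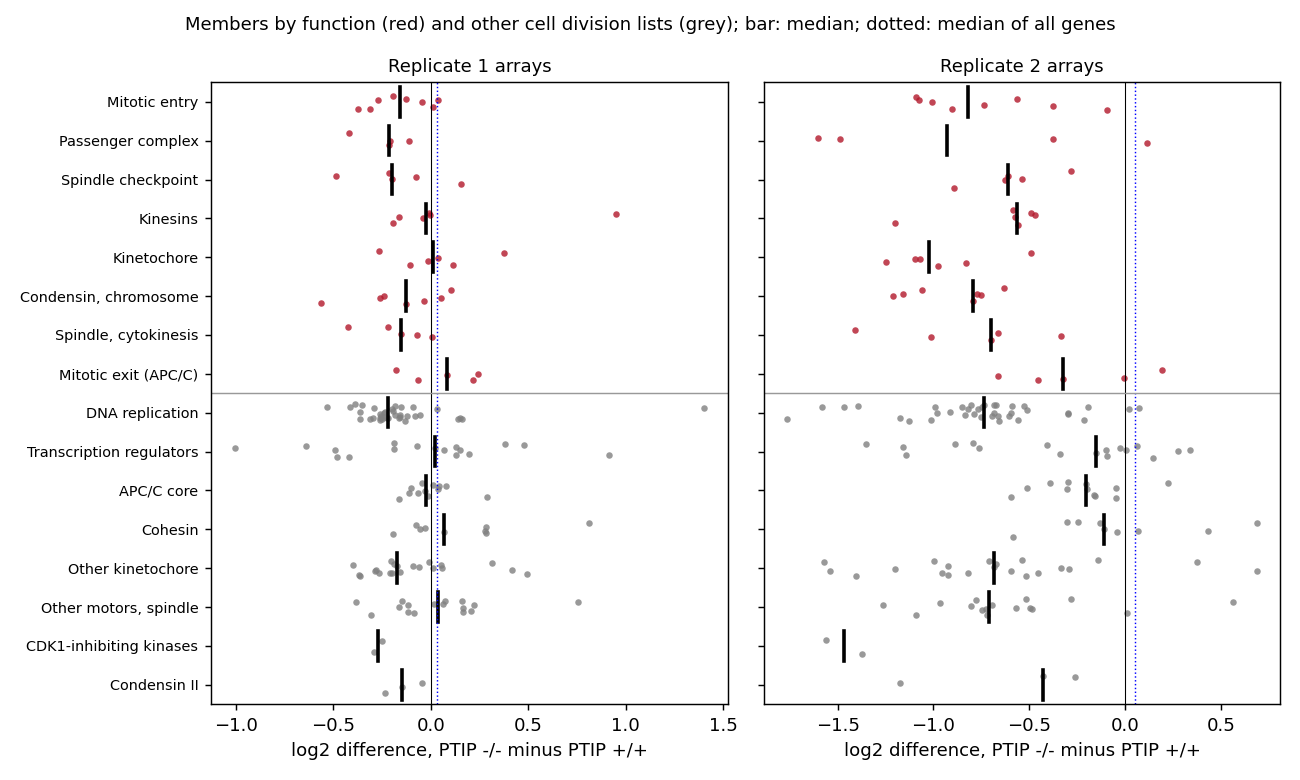
Log2 difference, PTIP -/- minus PTIP +/+, of each gene within replicate number 1 (left) and number 2 (right), by functional group of the members (red) and for other cell division lists (grey), with the group median as a bar and the median of all genes dotted. The member medians run from -0.21 to 0.08 on the left and from -1.02 to -0.32 on the right.

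The promoter elements shown above were common among the members. Of the 47, 40 had a window in the RefSeq table, Ccnb1 among them, and 30 of the 40 (75%) held a CHR, against 21.7% of all 27025 genes in the table. Within 50 bases of the start, where these elements are usually found, 27 of 40 (67.5%) held one, against 6.12% of all genes. CCAAT, on either strand, was in 31 of 40 (77.5%), against 41.1%, and both elements in 27 (67.5%), against 8.61%. An E2F motif (TTTGGCGC, TTTCGCGC or TTTCCCGC, either strand) was in 3 of 40 (7.5%) and in 12 of 30 replication genes (40%), against 2.12% of all genes, and 6 of those 30 replication genes (20%) held a CHR and 19 (63.3%) a CCAAT. A CHR was also in 11 of 17 other motor, spindle and cytokinesis genes (64.7%), in 9 of 20 other kinetochore genes (45%) and in all 3 condensin II genes. In the members' windows a CHR and a CCAAT match overlapped once, in Cdca8, and an E2F match overlapped neither.

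Among measured members, the 30 with a CHR had medians of -0.09 (number 1) and -0.65 (number 2), and the 9 without had 0.01 and -0.89, a difference that was not tested. Birc5, Nuf2, Ncaph, Nusap1 and Mad2l1 had neither a CHR nor a CCAAT match in the window and were among the 14 farthest below 0 in number 2 of the 39 measured members with a window, and Pttg1, also without either, was the highest. Aurka held both elements and differed by -0.09 in number 2. A match is a stretch of letters and not a bound site, and the absence of one says only that these letters are not in this window.

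**Figure D5:**
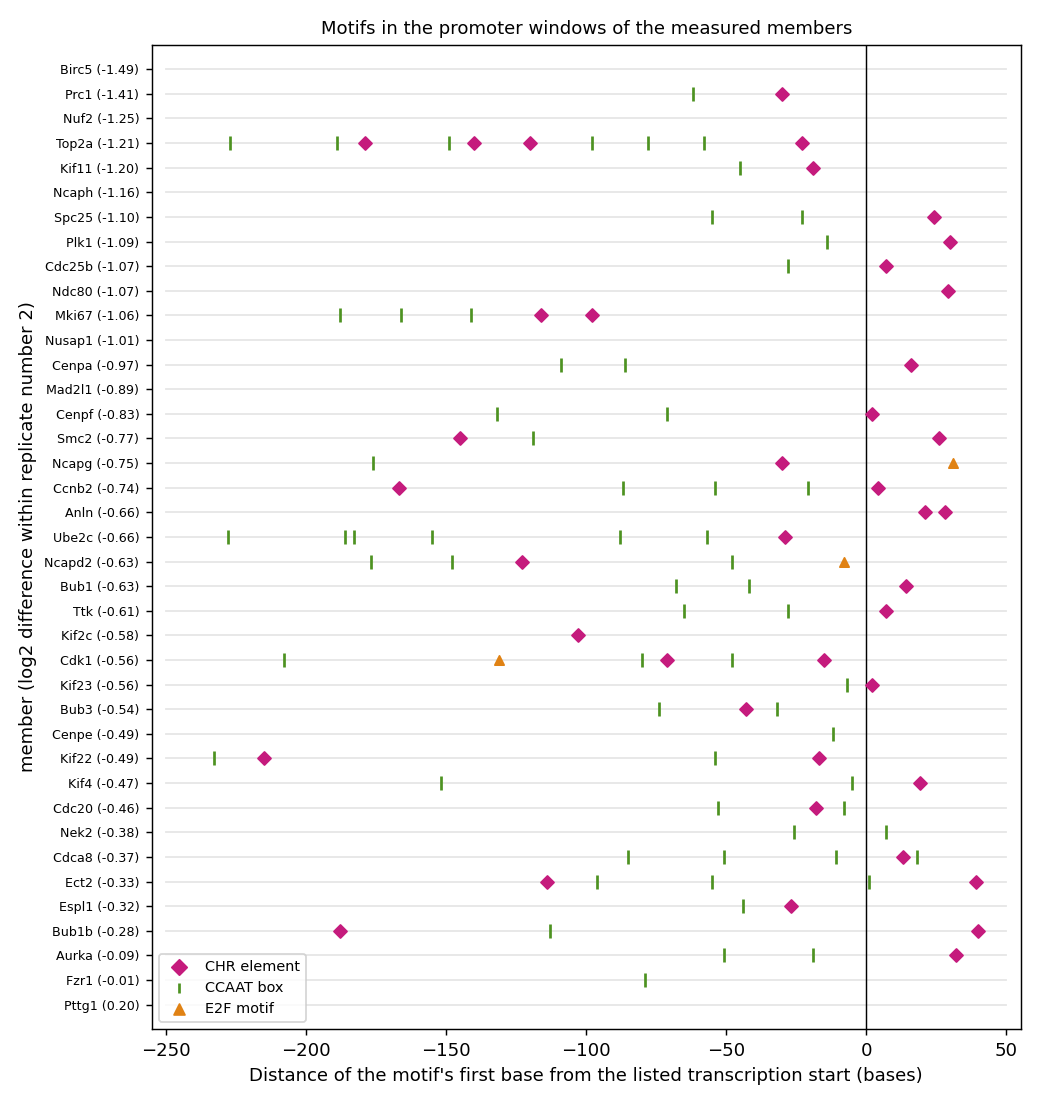
Position of CHR elements, CCAAT boxes and E2F motifs in the promoter windows of the 39 measured members with a window, in bases from the listed transcription start, ordered with the lowest log2 difference within replicate number 2 (in brackets) at the top. Most CHR elements, 28 of 41 over all 40 windows, lie between -43 and 40 bases of the start, in rows from Prc1 near the top to Aurka near the bottom.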

How the data were processed

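Array intensities on a linear scale, 1 per probe set, were deposited for 4 arrays. RMA is named in the submitters' processing notes, without a version. The deposited intensities are linear with unequal quantiles and a trimmed mean of 500 on each array (top and bottom 2% left out), which is not the usual output of RMA. For background correction and probe summary no source used here gives the method.

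A single 0 was set to 0.1 and intensities were taken to log2. Of 45101 probe sets, 64 controls were left out and 34945 had 1 symbol. A gene's brightest probe set by mean log2 stood for it, and 12509 of 18193 genes reached the 40th percentile of probe-set means (47.68). Genotypes were compared in limma 3.58.1 (R 4.3.3; lmFit, eBayes, no covariate), adjusted by Benjamini-Hochberg over all genes tested, and the model was tested on simulated data. Differences within 1 replicate number set 1 array against 1 and carry no test.

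The members, functional groups and other lists were chosen with earlier results of these data known. Members given with all signals include, in each group, the 2 with the largest and the 1 with the smallest difference over the arrays, and any whose differences within the numbers had opposite signs. Of each other list the farthest gene is named. Pkmyt1, Foxm1 and Mybl2, and members shown with signals beyond that rule, were chosen after their values were seen. Motifs were searched on both strands in the RefSeq promoter windows. Alternatives were quantile normalization, median centring, no filter or one at the 60th percentile, signals raised to the filter level, averaging all probe sets of a gene, a variance trend, the replicate block and each array left out.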

Additional observations from a re-analysis of the deposited data

How the results depend on the processing

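No member passed the adjusted p under any of the 12 alternatives, and members at an unadjusted p under 0.05 numbered from 0 to 5. The members' median stayed below 0 throughout, at -0.58 with centred arrays, -0.33 with probe sets averaged per gene and -0.39 with quantile normalization, and from -0.66 (without PTIP -/- replicate 1) to -0.19 (without PTIP -/- replicate 2) with an array left out. The median of all genes was -0.11 with centred arrays, 0.00 with quantile normalization, 0.02 with the filter at the 60th percentile, 0.08 with no filter and 0.08 with the mean of probe sets, and from 0.02 to 0.06 with an array left out. With the replicate block the members' median was -0.42, 43 were lower and 0 passed, with 982 genes at an unadjusted p under 0.05 against 286 without it. Deviations from the genotype means correlated at 0.686 between same-numbered arrays. With 2 arrays a genotype this is a single value, since the deviations of replicates 1 and 2 are exact opposites, and the numbers were not taken as pairs.

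With the mean of probe sets the sign turned for Bub1b (0.13), Cdc20 (0.14), Incenp (0.33), Kif22 (-0.36), Nek2 (0.12) and the mitotic exit median (0.04), and with centred arrays for Fzr1 (-0.12). With each array left out in turn, signs turned for 14 members: Aurka ran from -0.28 to 0.20, Bub1 from -0.79 to 0.09, Bub1b from -0.35 to 0.22, Ccnb2 from -0.78 to 0.00, Cdca8 from -0.62 to 0.14, Ect2 from -0.41 to 0.01, Espl1 from -0.37 to 0.29, Fzr1 from -0.21 to 0.29, Incenp from -0.48 to 0.18, Kif22 from -0.17 to 0.63, Kif2c from -0.65 to 0.07, Ncapg from -0.76 to 0.06, Nek2 from -0.35 to 0.01 and Pttg1 from -0.12 to 0.53. The cause was not tested. Of 368 member values under the other alternatives 362 kept their sign, and of 184 with an array left out 163. Every member's signal on its brightest probe set was at least 365.7, against a filter level of 47.68. The limits seen here are the 2 arrays a genotype, the choice of probe set, the scaling and the unexplained difference between the replicate numbers.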
